A study of Homo sapiens with 54 samples.

Results

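The libraries described here came from olaparib-resistant (OlaR) MDA-MB-468 cells and from the parental line given olaparib, 3 libraries of each, which are 6 of the 54 libraries of the series. They were chosen by label alone, as the OlaR libraries and the olaparib-treated parental libraries without cisplatin (CDDP). MDA-MB-468 is an epithelial triple negative breast cancer (TNBC) line, with wild-type BRCA1. The parental cells had been treated overnight with 3 µM olaparib. The OlaR cells had been adapted to rising olaparib doses over months and were kept in 15 µM olaparib, in the same medium as the parental cells. Resistance, olaparib dose and length of culture thus changed together between the groups and cannot be told apart. The sources do not say whether the OlaR cells were 1 clone or a pool, nor whether the 3 replicates of a group were separate cultures. P-values thus measure only the spread between libraries of a condition, estimated over the 27 MDA-MB-468 libraries, and this spread may be technical. The libraries were 3′ mRNA-seq libraries. Values are adjusted read counts, that is, reads scaled by the authors to a common library size of 5585170 reads. Other libraries of the series served for comparison, namely untreated parental cells (3), both cell types with 1 µM (6) or 2.5 µM CDDP (6), and SUM1315, a BRCA1 mutant TNBC line, as OlaR in 25 µM and as parental cells in 8 µM olaparib (6).

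Poly(ADP-ribose) polymerase 1 (PARP-1) senses DNA strand breaks and marks the site with ADP-ribose chains. Olaparib blocks the enzyme and holds it on DNA, which leaves replication forks in need of repair by homologous recombination. Known routes to resistance include restored recombination, protected forks, loss of PARP-1 and drug efflux.

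The OlaR libraries held 4588288 to 4676284 reads and the olaparib libraries 6867889 to 9268162. Replicates were alike (Pearson r across genes 0.97 to 0.98 on the log2 scale), and libraries of different groups less so (0.91 to 0.92). The line-identity markers went with the label in part. EPCAM lay at 3491, 3481 and 3456 in OlaR and 3154, 3082 and 2735 in olaparib-treated cells, and the luminal keratin KRT19 at 15810, 15230 and 15860 against 15640, 16160 and 17660. EGFR, which is amplified in this line, lay at 1750, 1986 and 1948 and at 2261, 2106 and 2216. RB1, reported as lost in this line, had reads in all 6 libraries, at 21.6, 16.5 and 28.6 against 8.46, 18.3 and 14.6 and was not called. The estrogen receptor gene ESR1, low in triple negative cells, was called higher in OlaR (208, 219.5 and 221 against 51.3, 33.8 and 35.9), and ERBB2, encoding the HER2 receptor, was called lower with overlapping groups (-1.19). SMAD4, deleted in this line, had 4 reads over the OlaR and 6 over the olaparib libraries. Of 14 leukocyte, endothelial and fibroblast markers, 9 had no read in any OlaR library and 7 none in any olaparib library, and the summed level of the list was 11.2 to 17.7 in OlaR and 35 to 45 in olaparib libraries. The only member called was the co-receptor CD14 (4.8, 8.23 and 1.48 against 39.1, 21 and 23.8, no overlap). Its part in other results was not tested.

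OlaR cells differed from olaparib-treated parental cells in 1855 of the 13012 genes tested (14.3%), at an adjusted p of 0.05 or less and a change of at least 2-fold. Of these, 928 (7.13%) were higher and 927 (7.12%) lower in OlaR. The median log2 fold change of all tested genes was -0.03. Without the fold limit 6702 genes (51.5%) passed, and for 56.2% of all tested genes the 3 libraries of one group lay wholly above those of the other. Changes of at least 4-fold were more often rises (320) than falls (188), and changes of at least 16-fold were 62 rises and 21 falls. Parental cells after overnight olaparib differed from untreated cells in 226 genes (1.74%), and OlaR from untreated cells in 1950 (15%). These comparisons share libraries, so their values are only set side by side below.

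The largest rises were in genes that parental cells hardly expressed. A2M, a secreted inhibitor of proteases (chr12:9067708-9116229, positions on GRCh38), lay at 337, 407 and 369.9 in OlaR and 0.38, 3.96 and 0 in olaparib libraries (log2 fold change 7.61 ± 0.58 (SE), limma adjusted p = 3.48e-16). MMP7, the matrix protease matrilysin, lay at 4053, 4395 and 4263 in OlaR and 33.1, 20.1 and 34.2 in olaparib libraries, a 144-fold difference (log2 fold change 7.17 ± 0.19 (SE), limma adjusted p = 8.88e-35). For both genes every OlaR library lay far above every olaparib and every untreated library. WASF3, a regulator of actin branching, lay at 195, 198 and 173 against 1.22, 0.644 and 0.776.

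Several of these genes had no read at all in the parental group. RIMKLB, a ligase that makes N-acetylaspartylglutamate, had 269 reads over the OlaR libraries and none over the olaparib libraries, at least 158-fold higher when 0 is taken to allow 3 reads over the group. In the same way the endothelin receptor EDNRB (222 reads against 0) was at least 130-fold higher, the palmitoyltransferase ZDHHC2 (161 against 0) at least 94.3-fold, the adhesion molecule NCAM2 (131 against 0) at least 76.8-fold and the zinc finger transcription factor MECOM (113 against 0) at least 66.2-fold. These intervals and bounds cover counting error only. RIMKLB, EDNRB and MECOM had no read in the untreated libraries either.

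Other genes were at the edge of detection in parental cells. The kinase anchor AKAP7 had 252 reads in OlaR and 1 in olaparib libraries, and the muscarinic receptor CHRM3 306 and 3, a ratio of 179 (95% exact interval 60.8 to 874). OLFM4, a secreted glycoprotein of crypt epithelium, had 174 reads against 1. The other genes among the 15 largest rises were the scaffold WWC2 (log2 fold change 6.26), the phosphatase PTPRR (5.98), the transcription factor MEF2C (5.42) and the ephrin ligand EFNB2 (5.37). EFNB2 lay at 147, 89.6 and 108 in OlaR and 0.829, 0.436 and 6.92 in olaparib libraries, without overlap. All 15 were also called higher in OlaR in the libraries with 1 µM and with 2.5 µM CDDP (6.12% and 6.41% of all tested genes were). None of the 15 was called between olaparib-treated and untreated parental cells.

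**Figure D1:**
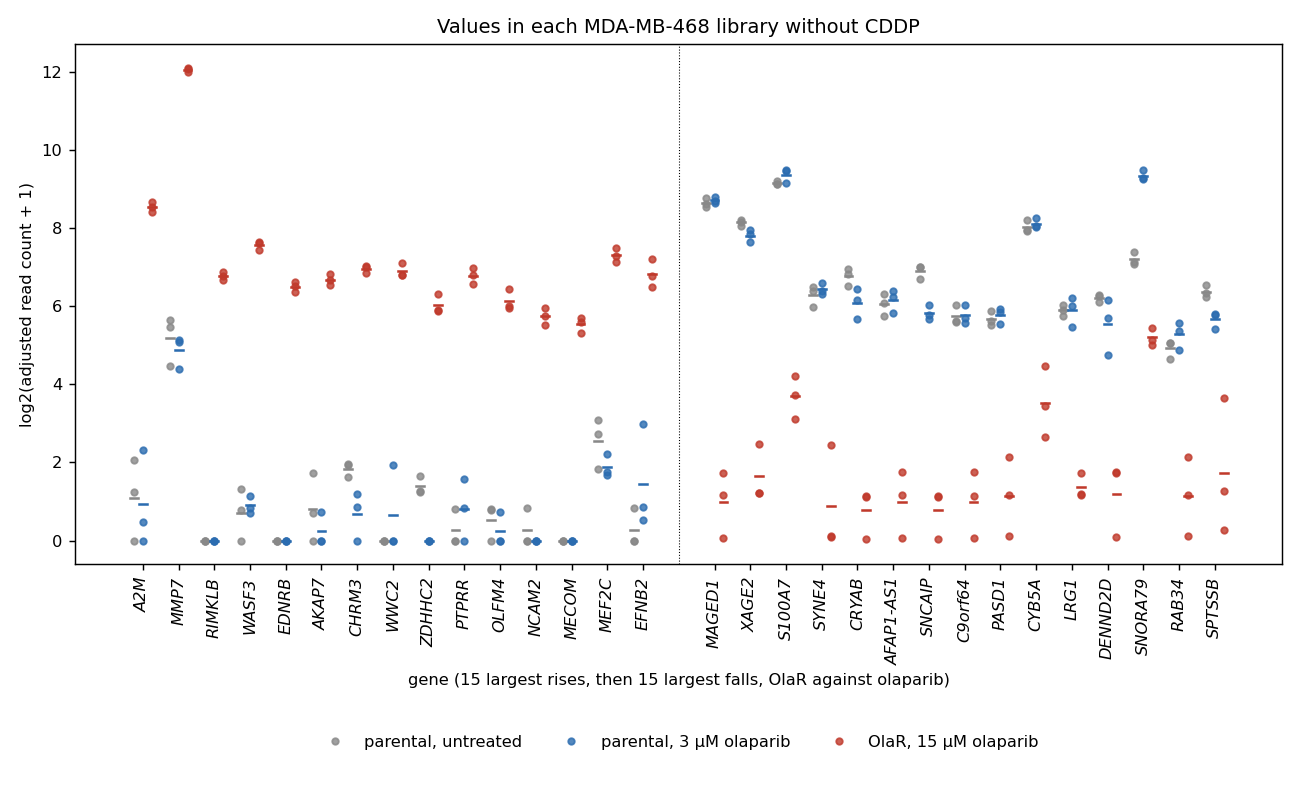
Values of the 30 genes with the largest changes in each library without CDDP, as log2(adjusted read count + 1), with points for libraries and short lines for means. The 15 genes on the left had OlaR values (red) far above both parental groups (untreated grey, olaparib blue), and the 15 on the right far below. For SNORA79 the olaparib values stand above the untreated ones.

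The largest fall was that of MAGED1, a MAGE family adaptor on the X chromosome (chrX:51803076-51902354). It lay at 415, 399.9 and 446 in olaparib libraries and 2.3, 1.25 and 0.055 in OlaR libraries, with 1824 and 3 reads, a ratio of 346 (95% exact interval 118 to 1680). The cancer/testis antigens XAGE2 and PASD1 are X-linked too. XAGE2 lay at 198, 244 and 227 against 4.59, 1.34 and 1.32, and PASD1 at 45.5, 59.8 and 56.5 against 3.42, 0.0774 and 1.26. In all 3 genes the parental level after olaparib was close to the untreated level (log2 fold changes of olaparib against untreated 0.08, -0.34 and 0.10).

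S100A7 (psoriasin), an abundant antimicrobial protein of squamous epithelium, fell 50.8-fold, from 709, 699 and 565 to 17.5, 12.3 and 7.69 (log2 fold change -5.67 ± 0.16 (SE), limma adjusted p = 5.54e-34). The small heat shock protein gene CRYAB fell from 69.8, 85.5 and 49.7 to 1.18, 1.21 and 0.0368, with 300 and 2 reads (ratio 85.3, 23.4 to 708). The nuclear envelope protein gene SYNE4 lay at 82.9, 96 and 78.5 against 4.5, 0.0774 and 0.0731. All these genes kept separate ranges in the groups. The other falls among the 15 were the long noncoding RNA AFAP1-AS1 (305 reads against 3, ratio 57.8, 19.6 to 282), the synuclein partner SNCAIP (243 against 2), C9orf64 (237 against 3), the electron carrier CYB5A (log2 fold change -4.59), the secreted glycoprotein LRG1 (-4.52), DENND2D (-4.33), the small GTPase RAB34 (-4.13) and SPTSSB (-3.93), a subunit of the enzyme that starts sphingolipid synthesis. All 15 falls were called at both CDDP doses too (7.49% and 8.17% of all tested genes were).

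SNORA79, a small nucleolar RNA, also responded to overnight olaparib. It lay at 134, 166 and 139.9 in untreated, 612, 617 and 709 in olaparib and 31.4, 42.4 and 34.1 in OlaR libraries, so the 3 groups did not overlap. Overnight olaparib had raised it (log2 fold change 2.13), and OlaR cells lay below untreated cells. Libraries primed on poly(A) do not read mature small nucleolar RNAs well, and reads of an overlapping host transcript cannot be told apart here. SNCAIP also moved with overnight olaparib, by -1.07, in the direction of its later fall.

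Counting all called genes with at most 3 reads over one group, 67 were higher in OlaR (24 of them with no read in the olaparib libraries) and 77 were lower (18 with no read in OlaR). Most of these were weakly expressed. Of the 67, 15 had at least 20 reads in every OlaR library, among them the steroid receptor family member NR2F1, the deacetylase HDAC9 and SERPINI1 beside those named above. Of the 77, 15 had at least 20 reads in every olaparib library, among them the adhesion molecule CEACAM6, the imprinted zinc finger gene PLAGL1 and the pyruvate dehydrogenase kinase PDK2. At 1 µM CDDP 15 of the former and 14 of the latter were called in the same direction, and at 2.5 µM all 15 of each, where 6.12% and 6.41% of all tested genes were called higher and 7.49% and 8.17% lower at these doses. The names here were chosen after their values were seen.

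The called genes were unevenly spread over the chromosomes. Of the tested genes, 12809 could be placed on GRCh38 by symbol, and 6.99% of these were called higher and 7.11% lower. On chromosome 22, 76 of 311 genes (24.4%) were higher and 7 lower, and 268 of the 311 had a positive log2 fold change. Chromosome 11 was the mirror image, with 159 of 735 genes (21.6%) lower and 16 higher, and chromosome 14 was like it, with 75 of 427 (17.6%) lower and 12 higher. Chromosomes 7 and 13 leaned to rises (15.6% and 16.3% higher, 3.23% and 2.45% lower), and chromosomes 10 and X to falls (12.5% and 15% lower).

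**Figure D2:**
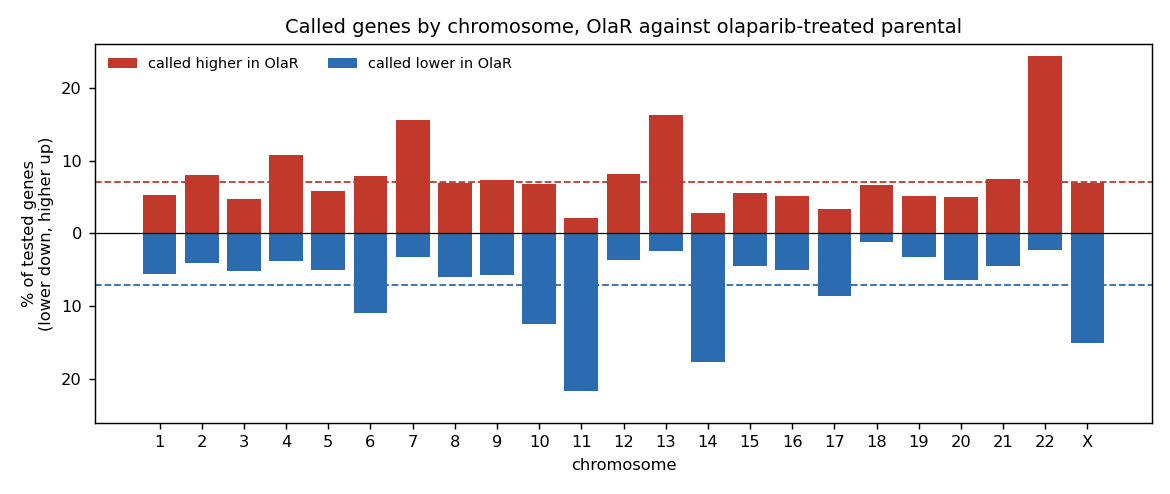
Percent of tested genes called higher (up, red) and lower (down, blue) in OlaR against olaparib-treated parental cells on each chromosome, with dashed lines at the percentages over all placed genes (6.99 and 7.11). Chromosome 22 stands out upward, and chromosomes 11, 14 and X downward.

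The lean was seen in whole chromosomes and in the same measure with CDDP. The median log2 fold change of all tested genes was 0.66 on chromosome 22, -0.52 on chromosome 11 and -0.53 on chromosome 14. In the libraries with 1 µM CDDP, which share none with these, the medians were 0.67, -0.53 and -0.52, and with 2.5 µM CDDP 0.69, -0.53 and -0.56. Against untreated cells they were 0.68, -0.49 and -0.50, while olaparib-treated against untreated parental cells gave 0.06, 0.04 and 0.02. In SUM1315 the same OlaR comparison gave -0.05, -0.16 and 0.09.

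Medians over runs of 25 neighbouring tested genes showed where the lean lay. The 3 highest and 3 lowest runs were picked by these same medians, so the signs and calls inside them follow in part from the pick. Of all placed genes 6.99% were called higher and 7.11% lower. The 3 lowest runs were all near the start of chromosome 11. The first, chr11:3797720-8683231 from PGAP2 to TRIM66, had a median of -1.27, with 24 of 25 genes negative and 18 called lower. The next, chr11:9138825-13012119 from DENND5A to RASSF10, had a median of -1.24, with all 25 genes negative and 16 called. The run chr11:494515-1310707, from RNH1 to TOLLIP-AS1, had a median of -1.23, again with 25 negative and 16 called. Taken library by library, the OlaR medians of these runs lay between -1.35 and -1.11, so the 3 OlaR libraries were alike.

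Among the called genes of the first run were the ribonucleotide reductase subunit RRM1 (-1.10), the calcium sensor STIM1 (-1.06), the integrin-linked kinase ILK (-1.59), the lysosomal enzymes TPP1 (-1.50) and SMPD1 (-1.59), the translation factor EIF3F (-1.55) and CYB5R2 (-3.72). RRM1 lay at 2063, 2019 and 2335 in olaparib and 1012, 993 and 979 in OlaR libraries. The exception was HBE1, an embryonic globin gene, which rose (3.13). The further called genes were PGAP2, RHOG, TRIM5, TRIM6, FAM160A2, APBB1, TRIM3, ARFIP2, TAF10, PPFIBP2 and TRIM66, at -2.54 to -1.12. The second run held EIF4G2, a translation factor (-1.66), the Hippo pathway transcription factor TEAD1 (-1.24), the integrin adaptor PARVA (-1.21), the cell cycle kinase WEE1 (-1.01) and the peptide hormone ADM (-1.86). It also held DENND5A, TMEM41B, SNORA23, SWAP70, SBF2-AS1, AMPD3, RNF141, CTR9, ZBED5, ZBED5-AS1 and RASSF10, at -2.12 to -1.24. The third held the oncogene HRAS (-1.37), the transcription factor IRF7 (-1.56), the pentose phosphate enzyme TALDO1 (-1.33), TOLLIP (-2.02), DEAF1 (-1.99) and MIR210HG (-1.95), the host transcript of a hypoxia-induced microRNA. Its other called genes were RNH1, RASSF7, LOC143666, EPS8L2, PANO1, PIDD1, CRACR2B, CHID1, AP2A2 and TOLLIP-AS1, at -1.88 to -1.03. HRAS lay at 215, 246 and 171 in olaparib and 90.3, 77.5 and 73.2 in OlaR libraries, without overlap. Calls lost without 1 library, through the fold limit or the adjusted p, were those of STIM1 (-0.99 without olaparib replicate 3), APBB1 (-1.69 to -1.78 without OlaR replicate 3 or olaparib replicate 1), WEE1 (-0.95 to -0.99 without OlaR replicate 1, OlaR replicate 2, olaparib replicate 1 or olaparib replicate 2), LOC143666 (-1.06 without OlaR replicate 1), PANO1 (-0.86 to -1.22 without OlaR replicate 2 or olaparib replicate 2) and AP2A2 (-0.85 to -0.99 without OlaR replicate 3, olaparib replicate 1 or olaparib replicate 3). The calls of WEE1, PANO1 and AP2A2 were also lost with edgeR under both scalings and with DESeq2 on recovered reads. Antisense genes such as TOLLIP-AS1 and ZBED5-AS1 may share reads with their partners, since the sources do not say whether strand was used in counting.

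The 3 highest runs lay on chromosomes 22 and 12. The run at the end of chromosome 22, chr22:46684410-50733212 from CERK to SHANK3, had a median of 1.12, with all 25 genes positive and 15 called higher. Among them were TYMP, thymidine phosphorylase (2.88), the p38 kinases MAPK12 (2.16) and MAPK11 (1.21), the deacetylase HDAC10 (1.35), the channel PANX2 (2.84) and SHANK3 (2.73). TYMP lay at 39.6, 46.4 and 41.3 in OlaR and 8.98, 5.6 and 2.11 in olaparib libraries. BRD1, ALG12, PIM3, SELENOO, TUBGCP6, PPP6R2, LMF2, NCAPH2 and CHKB were the other called genes, at 1.06 to 1.55. The second run on this chromosome, chr22:35299275-37656117 from TOM1 to SH3BP1, had a median of 0.90 and held heme oxygenase HMOX1 (1.21) and 4 apolipoprotein L genes, APOL1 (3.15), APOL2 (1.47), APOL3 (2.31) and APOL6 (1.32). Also higher in it were RASD2, MB, C1QTNF6, CARD10 and CDC42EP1, at 1.04 to 2.54, and ELFN2 was lower (-1.30). The run chr12:7188653-12099695 on chromosome 12, from PEX5 to BCL2L14, had a median of 0.94. It held A2M and RIMKLB, the leading rises, with KLRG1 (3.38), the autophagy gene GABARAPL1 (1.97), TMEM52B, CD163L1, TAS2R20, FAM86FP, OLR1, CLEC7A and BCL2L14, the last 7 at 1.08 to 1.84. Calls lost without 1 library were those of SELENOO (0.91 to 0.96 without OlaR replicate 3 or olaparib replicate 3), PPP6R2 (0.99 to 1.00 without OlaR replicate 3 or olaparib replicate 3), CHKB (1.01 to 1.30 without OlaR replicate 3 or olaparib replicate 1), MB (1.00 without olaparib replicate 1), CARD10 (0.81 without olaparib replicate 3), CD163L1 (1.31 to 1.67 without OlaR replicate 1, OlaR replicate 2, olaparib replicate 1 or olaparib replicate 3), FAM86FP (1.00 to 1.31 without OlaR replicate 2, OlaR replicate 3, olaparib replicate 2 or olaparib replicate 3), CLEC7A (0.86 to 0.99 without OlaR replicate 1 or olaparib replicate 2) and BCL2L14 (0.82 to 1.05 without OlaR replicate 1, OlaR replicate 2 or olaparib replicate 2).

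In libraries with CDDP the runs of chromosome 11 and that at the end of chromosome 22 gave medians close to those without, and the runs from TOM1 to SH3BP1 and from PEX5 to BCL2L14 lower ones. For the 3 runs of chromosome 11 these were -1.27, -1.23 and -1.06 at 1 µM and -1.27, -1.20 and -1.04 at 2.5 µM. For the runs of chromosome 22 they were 1.04 and 0.57 at 1 µM, and 1.27 and 0.68 at 2.5 µM, and for that of chromosome 12 0.62 and 0.65. Olaparib-treated against untreated parental cells gave medians between -0.08 and 0.11 in all 6 runs. In SUM1315 OlaR cells the medians of the 6 runs lay between -0.49 and 0.19.

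**Figure D3:**
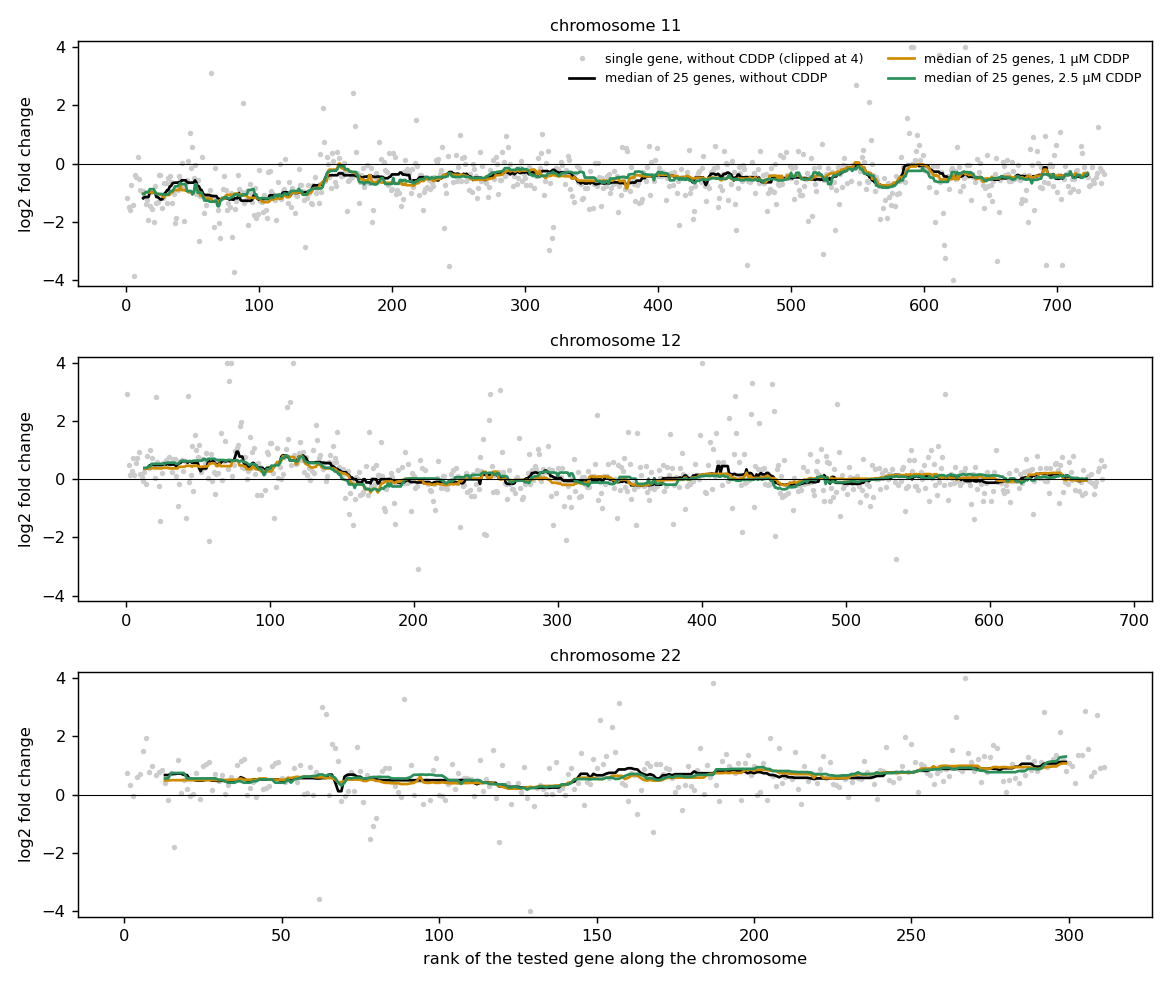
Log2 fold change of OlaR against olaparib-treated parental cells (vertical) by the rank of each tested gene along chromosomes 11, 12 and 22 (horizontal), with grey points for single genes (limited to 4 in either direction) and lines for the median of 25 neighbours without CDDP, with 1 µM and with 2.5 µM CDDP. The 3 lines lie close together over most of their length, with the lowest values at the start of chromosome 11 and high values at the start of chromosome 12 and at the end of chromosome 22.

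The level of the run medians differed between parts of chromosomes 11 and 12. On chromosome 11 the 147 tested genes before 27 Mb had a median of -1.03 with 75 called lower and 2 higher, and the other 588 a median of -0.44 with 84 lower and 14 higher. On chromosome 12 the 147 before 28 Mb had a median of 0.55 with 30 higher and 3 lower, and the other 532 a median of 0.00 with 25 higher and 22 lower. These limits were read off the plot of run medians after the values were seen and are a description only. The 6 runs together held 150 of the 12809 placed genes, 37 of the 895 placed rises and 51 of the 911 placed falls.

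PARP1, the target of olaparib, was not called. It lay at 823, 864 and 808 in OlaR and 1322, 1244 and 1338 in olaparib libraries, 1.56-fold lower without overlap (log2 fold change -0.65 ± 0.07 (SE), limma adjusted p = 1.54e-11), which is under the 2-fold limit. Untreated cells had 1089, 1051 and 1063. Of 19 tested genes of the PARP family and of ADP-ribose removal none was called, where 14.3% of all tested genes were, and the list ran from -0.65 (PARP1) to 0.76 (PARP4). PARP2 (-0.37) and the serine ADP-ribosylation factor HPF1 (-0.28) passed the adjusted p without the fold limit, and PARG, which removes the chains and whose loss is a known route to resistance, did not (0.02).

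Among recombination genes, BRCA1 lay at 441, 447 and 431 against 336, 333 and 371, 1.27-fold higher without overlap (limma adjusted p = 0.00046). Of 31 tested members of the list only XRCC2, a recombination factor, was called, where 14.3% of all tested genes were (116, 163 and 171 against 58.8, 57.2 and 52.9, log2 fold change 1.38 ± 0.18 (SE), limma adjusted p = 5.56e-09), and the list median was 0.08. In the libraries with CDDP the XRCC2 fold changes were 0.92 and 0.78, under the limit. Against the same 14.3%, of 18 Fanconi anemia genes only FAAP24, a DNA-binding partner of the core complex, was called, with 45.2, 32.6 and 45.8 in OlaR and 114, 98.8 and 108 in olaparib libraries (-1.37).

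Of 21 genes of the 53BP1 and shieldin axis and other genes tied to PARP inhibitor resistance, the one called (against 14.3% of all tested genes) was CXorf57, now named RADX, a single-strand DNA-binding protein of replication forks. It lay at 159.9, 156 and 142 in OlaR and 21.3, 25.5 and 26.7 in olaparib libraries, 6.04-fold higher (log2 fold change 2.60 ± 0.23 (SE), limma adjusted p = 3.63e-14), and was higher by 2.10 and 2.21 on the log2 scale at 1 and 2.5 µM CDDP. TP53BP1 (-0.16), whose loss restores recombination in BRCA1 mutant cells, did not pass the adjusted p, and the shieldin subunit MAD2L2 (0.89) passed it without reaching 2-fold. Membership of this list does not tell whether a rise or a fall goes with resistance. The part of RADX and MAD2L2 in resistance was not tested. Among drug transporters ABCB1, the P-glycoprotein gene, had no read in the OlaR libraries and 3 in the olaparib libraries and was not tested. The cyclic nucleotide and drug exporter ABCC4 rose from 21.4, 35.4 and 13.7 to 104, 111 and 103 (log2 fold change 2.23 ± 0.33 (SE), limma adjusted p = 1.21e-07), and the copper transporter ATP7B fell from 36.4, 15.1 and 22.3 to 3.81, 7.3 and 8.32 (-1.75). They were the only calls among 12 tested transporters (16.7%, against 14.3% of all tested genes). For ABCC4 every OlaR library lay above every parental one.

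POLH, the translesion polymerase that copies past bulky and platinum lesions, lay at 131, 129 and 113 in OlaR and 259.6, 231 and 237 in olaparib libraries, 1.94-fold lower without overlap (log2 fold change -0.96 ± 0.12 (SE), limma adjusted p = 3.02e-09), just inside the 2-fold limit. Its fold changes with CDDP were -1.06 and -0.97. None of 17 translesion genes was called without CDDP (14.3% of all tested genes were), while at 1 µM CDDP POLH passed the limit. Among 25 genes of base excision and single-strand break repair 12% were called, against 14.3% of all tested genes. APEX2, an endonuclease on the X chromosome, fell from 467, 526 and 512 to 212, 193 and 159 (-1.42). ALKBH1 fell (-1.10) and APLF was higher (1.74, limma adjusted p = 0.0279). The call of APLF was lost without OlaR replicate 1, OlaR replicate 2, olaparib replicate 2 or olaparib replicate 3 (1.58 to 1.74). Of 32 replication genes 6.25% were called, less than the same 14.3%. RFC2, a subunit of the clamp loader, rose from 140.1, 163 and 177 to 527, 463 and 522 (1.65). The helicase activator CDC45 rose less (1.12), a call lost without olaparib replicate 1 (0.98). RFC2 and XRCC2 lie on chromosome 7 (median 0.37), CDC45 on chromosome 22 (0.66), and APEX2 on the X (-0.21). The part of chromosome position in these changes was not tested.

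Of 32 genes of G2 and mitosis 21 passed the adjusted p downward and 1 upward, where 27.9% and 23.6% of all tested genes did. Only the kinase PLK1 was called (3.12% of the list, against 14.3% of all tested genes). It lay at 213, 268 and 213 in OlaR and 482, 409.8 and 588 in olaparib libraries (-1.08), a call lost without olaparib replicate 3 (-0.95). The list median was -0.29, and against untreated cells it was 0.10, while olaparib-treated against untreated cells gave 0.48. With 2.5 µM CDDP the median was 0.08.

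**Figure D4:**
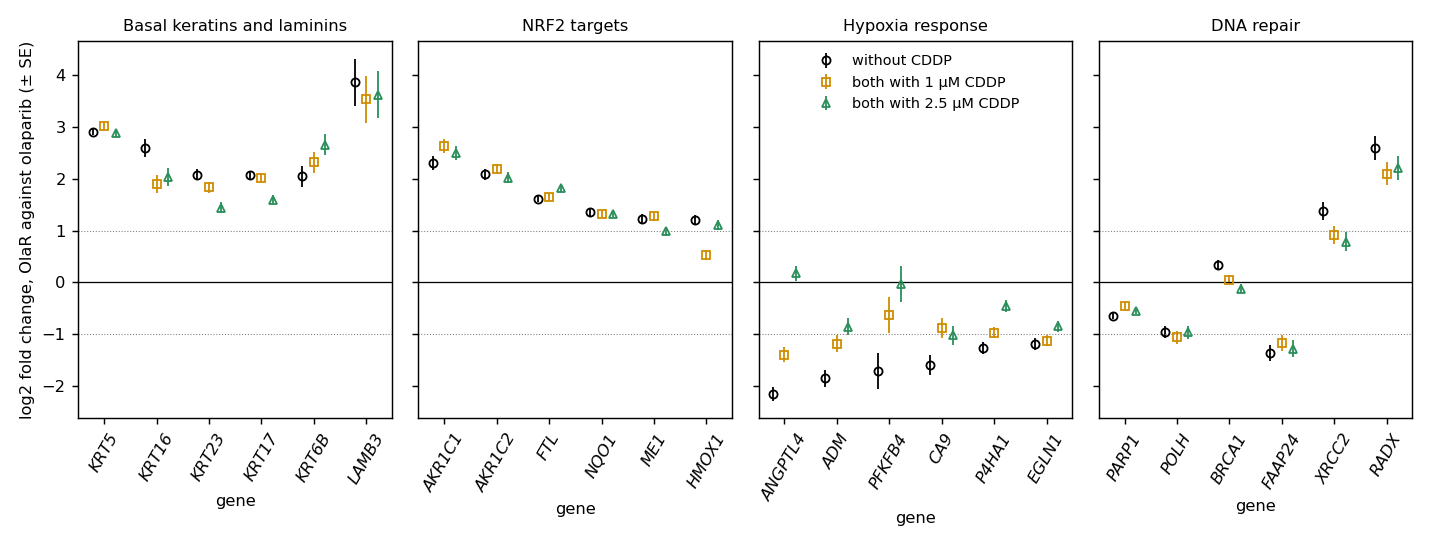
Log2 fold change (± SE) of OlaR against olaparib-treated parental cells for 6 genes in each panel, without CDDP (circles) and with 1 µM (squares) or 2.5 µM CDDP (triangles) in both. The panels hold keratins with a laminin chain (headed basal keratins and laminins), NRF2 targets, hypoxia response and DNA repair. Not all keratins shown are keratins of basal cells, and KRT14, which was not called, is not shown. The keratin, laminin and NRF2 genes shown were picked as called rises without CDDP, and the hypoxia genes as called falls. Their direction without CDDP thus follows from the choice, and other members of these lists, some changed the other way, are not shown. The keratin and NRF2 genes shown lie above 0 with CDDP too. ANGPTL4, PFKFB4 and ADM lie nearer 0 with 2.5 µM CDDP than without, and of the repair genes shown RADX lies highest.

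KRT5 and 5 other keratins were called higher in OlaR, and KRT14, the usual partner of KRT5 in basal cells, was not (6.18, 10.8 and 8.5 against 8.5, 9.8 and 12.3, log2 fold change -0.25). KRT5, the keratin of basal cells, rose 7.54-fold, from 521, 498 and 412 to 3731, 3694 and 3339 (log2 fold change 2.91 ± 0.07 (SE), limma adjusted p = 1.38e-35), with 3.02 and 2.89 at the CDDP doses. In untreated cells it lay at 258, 247 and 272, so the 3 groups were in separate ranges with OlaR on top. KRT16 (2.59), KRT17 (2.07), KRT23 (2.08), KRT6B (2.05) and KRT15 (1.02) rose too, the last a call lost without OlaR replicate 2 (0.97). KRT16, KRT17 and KRT6B, keratins of activated or hair follicle epithelium, are alike in sequence to their paralogs, so their reads are uncertain. LAMB3, which encodes a chain of laminin-332, the anchor of basal cells, lay at 92, 104 and 77.1 in OlaR and 4.48, 8.15 and 3.86 in olaparib libraries (log2 fold change 3.87 ± 0.46 (SE), limma adjusted p = 3.74e-10).

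In all, 9 of 33 epithelial genes were called higher and 2 lower (33.3% called, against 14.3% of all genes). The 2 lower were the hair keratin KRT81 (-1.91) and the transcription factor OVOL1 (-1.22). The tight junction gene OCLN was called higher (1.05), a call lost without OlaR replicate 3 or olaparib replicate 1 (0.92 to 0.97). Log2 fold changes of some luminal and junction genes that were not called were KRT8 (-0.44), KRT18 (0.16), KRT19 (-0.07), E-cadherin CDH1 (-0.04), CLDN1 (0.77), CLDN3 (-0.74) and PKP3 (-0.54). Of 24 mesenchymal genes only 10 were expressed enough to test, and 30% of these were called, against 14.3% of all tested genes. COL5A1, a fibrillar collagen chain (4.40), the gelatinase MMP2 (2.61) and fibronectin FN1 (1.55) rose, from 5, 22 and 78 reads over the olaparib libraries, and vimentin VIM was lower (-0.94), within the limit. ESR1, the estrogen receptor, which defines this line's subtype by its absence, rose from 51.3, 33.8 and 35.9 to 208, 219.5 and 221 (log2 fold change 2.42 ± 0.21 (SE), limma adjusted p = 3.5e-14).

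**Figure D5:**
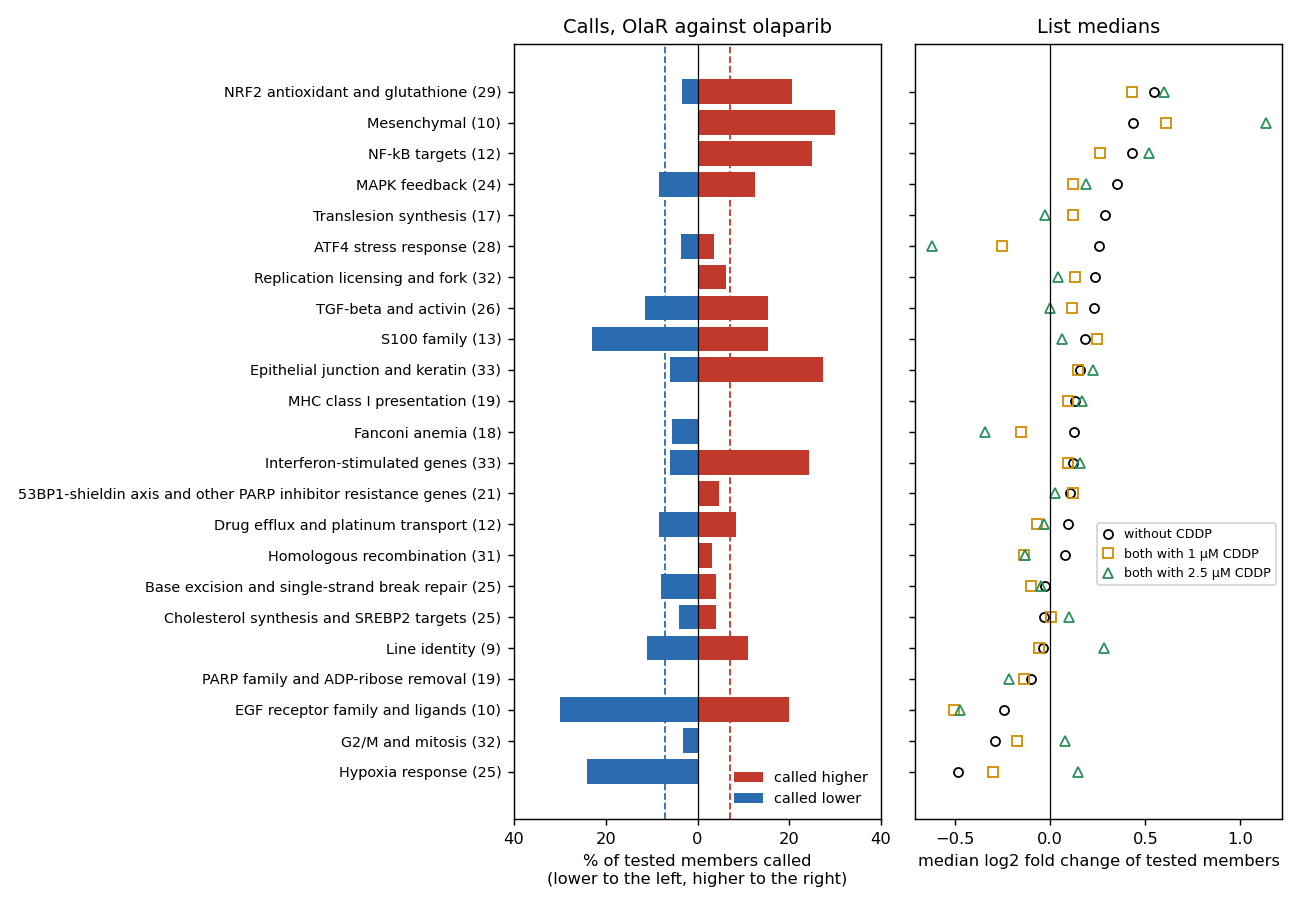
For the gene lists described, each with at least 9 tested members (number in brackets), the percent called higher (red) and lower (blue) in OlaR against olaparib-treated parental cells, with dashed lines for all tested genes (left), and the median log2 fold change without CDDP and with 1 or 2.5 µM CDDP (right). NRF2 targets have the highest median without CDDP (0.55) and hypoxia genes the lowest (-0.48).

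NRF2 is the transcription factor that induces antioxidant and detoxifying enzymes. Of 29 tested members of its list 6 rose and 1 fell (7.13% and 7.12% of all genes), and without the fold limit 17 passed upward and 6 downward (23.6% and 27.9% of all genes). The aldo-keto reductase AKR1C1 lay at 631, 761 and 690.0 in OlaR and 145, 169 and 109.9 in olaparib libraries (log2 fold change 2.31 ± 0.13 (SE), limma adjusted p = 5.3e-21), and AKR1C2 rose 4.24-fold. Both genes are near-identical, so their reads are uncertain, and both lay lower after overnight olaparib than untreated (-0.65 and -0.93). The quinone reductase NQO1 lay at 1886, 1975 and 1877 against 755, 741 and 739.8 (log2 fold change 1.36 ± 0.07 (SE), limma adjusted p = 4.66e-23), and had like fold changes at both CDDP doses (1.32 and 1.33). The ferritin light chain FTL (1.62), which has processed pseudogenes that can share its reads, malic enzyme ME1 (1.23) and HMOX1 (1.21) rose as well, each without overlap of the groups. Genes of glutathione synthesis did not move together, with GCLM at 0.97, the cystine carrier SLC7A11 at 0.84 and GCLC at -0.71. The member that fell, TALDO1, lies in the low run of chromosome 11, and HMOX1 in a high run of chromosome 22.

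Of 25 tested hypoxia-response genes, targets of the HIF transcription factors, 6 fell and none rose by the 2-fold rule, where 7.12% of all tested genes were called lower and 7.13% higher. Without it 16 passed downward and 3 upward, where 27.9% and 23.6% of all tested genes did, with a median of -0.48. ANGPTL4, a regulator of lipoprotein lipase, fell from 282, 303 and 384 to 74, 85.1 and 56.7 (log2 fold change -2.16 ± 0.14 (SE), limma adjusted p = 2.01e-18). Adrenomedullin ADM fell from 128, 152 and 136 to 50.5, 33.5 and 30.9, and the carbonic anhydrase CA9, a marker of hypoxic tumor cells, from 231, 169 and 129.6 to 59.6, 69.1 and 42.2 (log2 fold change -1.60 ± 0.19 (SE), limma adjusted p = 3.8e-10). For all 3 genes the OlaR libraries lay below every parental library, and overnight olaparib alone had left them near the untreated level (-0.02, -0.04 and -0.01). The glycolytic regulator PFKFB4 (-1.71), the collagen hydroxylase P4HA1 (-1.27) and the oxygen sensor EGLN1 (-1.19) were the other calls, while VEGFA (-0.77) and SLC2A1 (0.24) did not reach 2-fold. ADM and LDHA (-0.75) lie on chromosome 11 and EGLN3 (-0.95) on chromosome 14, and the part of position was not tested.

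The letters ACGTG are a form of the core at which HIF binds DNA. Other forms of the core were not searched, so sites that carry them were not counted. Letters ACGTG, or CACGT on the other strand, were searched in RefSeq promoter windows (250 bases before to 50 after a start, GRCh38.p14). Of the 25 genes 21 had a window, and 15 of these held the letters, as did 24.9% of all 27305 genes with a window. Of the 6 genes that fell, 4 held them, once each, and ADM and PFKFB4 did not in these windows. Genes of the list that were not called held the letters too, among them LDHA (up to 5 matches in a window), LOX (4) and HK2 (4). The letters were thus not particular to the genes that fell. Only the windows of the 4 fallen genes with the letters are shown, written 5′ to 3′ with the matched letters in capitals.
CA9 (chr9:35673678-35673977, + strand): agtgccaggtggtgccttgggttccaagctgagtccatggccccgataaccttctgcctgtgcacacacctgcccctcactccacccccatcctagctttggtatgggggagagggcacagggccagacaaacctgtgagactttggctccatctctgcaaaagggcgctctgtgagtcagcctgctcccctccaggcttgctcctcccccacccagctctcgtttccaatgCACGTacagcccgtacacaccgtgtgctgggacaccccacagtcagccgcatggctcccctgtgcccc
P4HA1 (chr10:73096817-73097116, - strand): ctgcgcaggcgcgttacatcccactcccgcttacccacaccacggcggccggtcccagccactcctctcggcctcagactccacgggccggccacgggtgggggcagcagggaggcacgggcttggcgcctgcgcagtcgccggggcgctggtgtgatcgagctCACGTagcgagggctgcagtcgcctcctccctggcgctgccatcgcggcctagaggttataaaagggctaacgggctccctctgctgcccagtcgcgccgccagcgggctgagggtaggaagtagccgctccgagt
EGLN1 (chr1:231422238-231422537, - strand): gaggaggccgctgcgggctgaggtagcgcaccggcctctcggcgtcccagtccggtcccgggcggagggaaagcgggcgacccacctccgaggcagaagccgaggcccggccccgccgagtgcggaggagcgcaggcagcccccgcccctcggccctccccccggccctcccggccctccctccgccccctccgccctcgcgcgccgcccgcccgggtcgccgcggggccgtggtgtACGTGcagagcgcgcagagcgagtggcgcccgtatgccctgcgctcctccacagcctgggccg
ANGPTL4 (chr19:8363905-8364204, + strand): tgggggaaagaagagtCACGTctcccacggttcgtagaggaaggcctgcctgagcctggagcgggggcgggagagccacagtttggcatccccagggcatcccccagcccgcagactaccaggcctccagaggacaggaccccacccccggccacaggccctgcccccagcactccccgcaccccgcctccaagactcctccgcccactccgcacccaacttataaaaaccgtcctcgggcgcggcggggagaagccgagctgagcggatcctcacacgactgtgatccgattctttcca
In CA9 and EGLN1 the match lies close before the start, and in ANGPTL4 near the upstream end of the window. A match describes the letters and does not show binding.

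The hypoxia difference was smaller with CDDP. The list median was -0.30 at 1 µM and 0.14 at 2.5 µM. For ANGPTL4 the fold change went from -2.16 without CDDP to -1.40 and 0.17, and the difference of the 2.5 µM effect from that without CDDP was 2.33 ± 0.20 (SE, limma adjusted p = 1.1e-12). With 2.5 µM CDDP it lay at 109.8, 106 and 99.4 in OlaR and 109, 87.1 and 85.7 in olaparib libraries, which overlapped. Beside the libraries without CDDP, the parental level was lower and the OlaR level higher. ADM (difference 1.00), PFKFB4 (1.68) and P4HA1 (0.82) passed the same limma test of the difference (adjusted p = 0.00174, 0.0156 and 0.000198). CA9 and EGLN1 did not (0.149 and 0.14). These genes and ANGPTL4 were chosen for their fall without CDDP, which enters the difference. A smaller effect with CDDP was thus favoured in advance, and the values only describe these genes. Of all tested genes 15% passed this difference at 2.5 µM.

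Activin subunit genes rose in OlaR. INHBA, which encodes the subunit of activin A, rose 32-fold, from 18.8, 11.7 and 9.3 to 439, 468.2 and 410.4 (log2 fold change 5.00 ± 0.23 (SE), limma adjusted p = 5.82e-25), and INHBB, the subunit of activin B, 6.12-fold, from 42.3, 54.3 and 45.8 to 268, 298 and 318. Neither gene's groups overlapped, and INHBA was higher by 4.14 and 3.79 at the CDDP doses. Of 26 tested TGF-β and activin genes 4 rose and 3 fell, where 7.13% and 7.12% of all tested genes did, the falls being the co-receptor TGFBR3 (-1.59) and the latent TGF-β binding proteins LTBP1 (-1.19) and LTBP2 (-1.22). The fourth rise was TGFB1 (1.52). Calls lost without 1 library were those of TGFB1 (0.92 to 1.08 without OlaR replicate 3 or olaparib replicate 1) and LTBP2 (-0.91 to -1.10 without OlaR replicate 2 or olaparib replicate 3). ID4, an inhibitor of helix-loop-helix factors, rose by 1.20 without CDDP and was at 0.10 and -1.18 with 1 and 2.5 µM CDDP. Its level was 268, 257 and 265 in untreated, 102, 95.7 and 67.4 in olaparib and 193, 181 and 232 in OlaR libraries, so the olaparib group was the low one. SMAD4, the shared partner of this pathway, is deleted in the line.

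In the EGF receptor family the receptor EGFR was 1.16-fold lower (adjusted p = 0.000957), under the limit. Of 10 tested members the ligand EGF (1.47) and the feedback inhibitor ERRFI1 (1.51) rose, and the ligand BTC (-1.53), LRIG1 (-1.48) and the receptor ERBB2 (-1.19, groups overlapping) fell, where 7.13% and 7.12% of all tested genes did. Among 24 MAPK feedback genes the transcription factors ETV4 (1.90) and ETV5 (1.36) and PHLDA1 (1.59) rose, and EGR1 (-2.01) and the phosphatase DUSP4 (-1.07) fell, against the same shares of all genes. Calls lost without 1 library were those of ERBB2 (-0.77 to -1.03 without OlaR replicate 3 or olaparib replicate 2) and DUSP4 (-0.90 to -0.99 without OlaR replicate 2, OlaR replicate 3 or olaparib replicate 3), and that of DUSP4 was also lost with edgeR under both scalings and with DESeq2 on recovered reads. For several of these the olaparib group stood apart from the untreated one. ETV4 lay at 36.1, 43.5 and 50.4 in untreated, 17.3, 10.1 and 11.9 in olaparib and 46.9, 43.5 and 63.4 in OlaR libraries. ERRFI1 (-1.13) and PHLDA1 (-0.97) were likewise lower after overnight olaparib, and against untreated cells their OlaR values were 0.38 and 0.61. EGR1 lay at 736, 828 and 814 in untreated, 319, 281 and 380.4 in olaparib and 69.9, 92.5 and 78.9 in OlaR libraries, lower in each group than in the one before.

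The S100 genes encode small calcium-binding proteins. Of 13 tested, 2 were called higher and 3 lower, where 7.13% and 7.12% of all tested genes were, and 8 were not called. S100A7, S100A8 and S100A9 fell, S100A9 from 1073, 1212 and 964 to 229, 222 and 289.7 (-2.13) and S100A8 with a log2 fold change of -3.12. S100A2 rose from 3112, 3427 and 3062 to 10380, 10140 and 10130 (log2 fold change 1.68 ± 0.06 (SE), limma adjusted p = 2.85e-30), and S100P rose by 1.16. All 5 kept the same direction with CDDP.

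Of 33 tested interferon-stimulated genes 8 rose and 2 fell, where 7.13% and 7.12% of all tested genes did, and the list median was 0.12. The antiviral factor SAMD9 rose from 34.8, 28.6 and 30.5 to 178, 166 and 175 (2.43), ISG15, a ubiquitin-like protein, from 60.2, 52.5 and 55.5 to 137, 132 and 161 (1.33), and IFI6 by 1.95. IRF7, in the low run of chromosome 11, and the sensor DHX58 fell. MX1 (-0.24) and IFIT1 (-0.09) did not pass. None of 19 genes of MHC class I presentation was called, where 14.3% of all tested genes were. Of 12 tested NF-κB targets BIRC3 (1.55), TNFAIP3 (1.37) and CXCL8 (18 reads against 3, ratio 10.5, 3.08 to 55.9) were called higher, where 7.13% of all tested genes were.

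Of 25 cholesterol synthesis genes 1 was called higher, the synthase gene HMGCS1 (1.31), and 1 lower (8% called, against 14.3% of all tested genes). Of 28 genes of the ATF4 stress response 7.14% were called, also less than the 14.3% of all tested genes. The amino acid carrier SLC7A5 (1.52) rose and CTH (-1.04) fell, the latter a call lost without OlaR replicate 2 or olaparib replicate 2 (-0.96 to -0.996). For SLC7A5 the fold changes with CDDP were 0.60 and 0.44, and the list median went from 0.26 without CDDP to -0.25 and -0.62. Olaparib-treated against untreated cells gave a median of -0.70 for this list.

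The libraries with CDDP repeat the comparison of OlaR with olaparib-treated parental cells in 12 libraries that did not enter the fold changes above, though all 27 libraries of the line share 1 estimate of the spread. Between OlaR and parental cells 1771 genes (13.6%) were called with 1 µM and 1897 (14.6%) with 2.5 µM CDDP. Of the 928 genes higher without CDDP, 578 (62.3%) were also called higher with 1 µM and 560 (60.3%) with 2.5 µM, where 6.12% and 6.41% of all tested genes were, and 458 in all 3 comparisons. Of the 927 lower, 629 (67.9%) and 561 (60.5%) were called lower again, where 7.49% and 8.17% of all were, and 477 in all 3. At each dose 1 of the 928 was called the opposite way, and 0 of the 927. Median log2 fold changes of the 928 were 1.64 without, 1.32 with 1 µM and 1.31 with 2.5 µM CDDP, and of the 927 -1.39, -1.23 and -1.19. The difference of the OlaR effect with and without CDDP passed in 377 genes (2.9%) at 1 µM and 1958 (15%) at 2.5 µM.

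SUM1315 OlaR cells shared part of these changes. Of the 723 higher genes that could also be tested in SUM1315, 146 (20.2%) were called higher there and 93 (12.9%) lower, where 6.27% and 7.93% of all genes tested in both lines were. Of 695 lower genes, 99 (14.2%) were lower and 60 (8.63%) higher. KRT5 (3.38), KRT23 (3.02) and INHBA (4.67) rose in SUM1315 OlaR cells too, and SNCAIP (-5.18) and EGR1 (-4.56) fell. S100A7 went the other way (2.83). In SUM1315 alone 2177 of 13133 tested genes (16.6%) were called, and the difference between the lines passed for 41.7% of the genes tested in a joint fit. The olaparib doses differed between the lines in both groups.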

How the data were processed

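The deposited table holds 1 value per gene and library for 27470 genes and 54 libraries of QuantSeq 3′ mRNA-seq. Per the labels, the authors processed the reads with CASAVA, FastQC, STAR, HTSeq and edgeR against hg38, and the deposited values are a signal, read counts adjusted to a common library size. Whole reads were recovered from the adjusted values (100% of 1483380 values came out whole, within a relative difference of 1e-06). Since the deposited values are not counts, the main test was limma 3.58.1 (limma-trend, R 4.3.3) on log2(value + 1) over 27 MDA-MB-468 libraries in 9 conditions, in place of the edgeR test of the study, for the 13012 genes that reached 10 in 3 libraries or more. Fold changes are on the log2(value + 1) scale, which understates changes of low genes. P-values were adjusted by Benjamini-Hochberg over all tested genes, and a call needed an adjusted p of at most 0.05 and a 2-fold change. The quasi-likelihood test of edgeR 4.0.16 on the recovered reads called 1861 genes, 1774 of them shared. DESeq2 1.42.0, other pseudocounts, filters and left-out libraries were alternatives, and the fit was tested on simulated data. Depth is the total of recovered reads, and the ratios and bounds given for reads cover counting error only (exact 95% intervals). A group with no read was taken to allow 3 reads over its 3 libraries.

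Named genes were the 15 largest rises and 15 largest falls among called genes whose groups did not overlap and whose mean over the 6 libraries was at least 20, up to 5 called members of each gene list with the smallest p together with members needed to say which did not pass, PARP1, POLH, BRCA1, ABCB1, EGFR, RB1 and SMAD4, and the called genes of each run. Further called members of longer lists were named after their values were seen. The members and lists were chosen with earlier results of these data known. Genes were placed on GRCh38 by current symbol (12218) or older symbol (591), and 203 were not placed. Promoter windows came from RefSeq (GRCh38.p14). Replicate numbers did not pair the libraries (correlations of deviations -0.01 to 0.01 in this comparison and -0.03 to 0.02 over all MDA-MB-468 comparisons). The other libraries of the series were not analysed here for results of their own, and some named genes are not reported here.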

Additional observations from a re-analysis of the deposited data

Results flagged for a closer look

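The doses of olaparib differed between the lines (15 against 3 µM in MDA-MB-468, 25 against 8 µM in SUM1315), so the differences between lines given here compare unequal treatments. The difference between the lines in OlaR against olaparib-treated parental cells passed an adjusted p of 0.05 in limma for 6033 genes of 14460 (41.7%). Of the 11755 genes tested in both lines it passed for 5235 (44.5%). Of the 15 largest rises in MDA-MB-468, 11 were expressed enough to be tested in SUM1315, and of the 15 largest falls 9 were. These genes were chosen for the size of their change in MDA-MB-468, which enters the difference, so the values that follow describe them and test nothing. The difference (MDA-MB-468 minus SUM1315, log2) was 5.42 for RIMKLB, 6.72 for EDNRB, 6.64 for AKAP7, 8.17 for CHRM3, 6.73 for WWC2 and 4.75 for ZDHHC2. It was 3.799 for PTPRR, 8.24 for NCAM2, 5.83 for MECOM, 5.39 for MEF2C and 5.24 for EFNB2. Among the falls it was -6.98 for MAGED1, -6.46 for XAGE2, -8.50 for S100A7, -5.75 for CYB5A, -4.58 for SNORA79, -4.40 for RAB34 and -2.20 for SPTSSB, and it did not pass for SNCAIP and LRG1, which fell in both lines. The cause was not tested.

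The effect of OlaR differed between libraries with and without CDDP in 377 genes at 1 µM and 1958 at 2.5 µM. Of the 30 genes with the largest changes, the difference (2.5 µM CDDP minus none, log2) passed for MAGED1 (1.44), XAGE2 (1.70) and SNORA79 (2.31), and at 1 µM for SNORA79 (1.56). For each the fall was smaller with CDDP and was still called, and these genes too were chosen for their change without CDDP. The cause was not tested.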

How the results depend on the processing

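Without a limit on the fold change, 3077 genes were higher and 3625 lower in OlaR than in olaparib-treated cells, with 6614 and 6830 called at 1 and 2.5 µM CDDP, 6959 against untreated cells and 2802 for olaparib against untreated cells, and with a limit of 4-fold these were 320, 188, 493, 496, 510 and 33. The difference between lines passed for 3097 genes with a limit of 1 on the log2 scale. With edgeR on recovered reads 979 genes were higher and 882 lower, with DESeq2 994 and 872, with a pseudocount of 5 767 and 757, and with no filter 1139 and 977. Leaving out 1 library gave 869 to 924 higher and 896 to 928 lower, 5578 to 5717 for the line difference and 192 to 230 for olaparib against untreated cells. For runs of other lengths the most extreme run overlapping each stretch was taken, which favours more extreme medians in shorter runs. With 15 genes these medians were 1.21 (overlapping CERK to SHANK3), 1.15 (PEX5 to BCL2L14), 1.06 (TOM1 to SH3BP1), -1.50 (PGAP2 to TRIM66), -1.32 (DENND5A to RASSF10) and -1.33 (RNH1 to TOLLIP-AS1). With 50 genes they were 0.70, 0.85 and -1.05 for the stretches from PEX5, TOM1 and RNH1. With the replicate number as a block 926 genes were higher and 923 lower, and the numbers did not pair the libraries. Of 200 named genes followed over 2800 alternative values, 0 reversed and 30 lost a call somewhere, 29 of them without 1 library. The test of the CDDP difference, the left-out libraries for the line difference and the limits on chromosomes 11 and 12 were chosen after seeing the data. Resistance, dose and culture time cannot be told apart, and low genes are limited by the 4588288 to 4676284 reads of the OlaR libraries.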
